A study of Mus musculus with 61 samples.

Results

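Synapses are held together by pairs of cell-surface proteins, and 52 protein-coding genes of 13 such families were followed in nuclei sorted from the nucleus accumbens of the mouse, a ventral striatal region. They were chosen by gene name, with earlier results of these data known. The families are the neurexins, neuroligins, LRRTM, SLITRK, LRFN and FLRT proteins, contactins, contactin-associated proteins, netrin-G ligands, LINGO and IL1RAPL proteins, latrophilins and the receptor phosphatases of the LAR type. The count table held 55401 gene identifiers, of which 21897 were protein coding, and all 52 of these genes had enough counts to be tested. Male mice carried the transgene LSL-eGFP::L10a, a fluorescent tag on the ribosomal protein L10a, switched on by D1-Cre or D2-Cre, which act in cells that use the dopamine receptor D1 or D2 gene. Within each genotype there were 4 treatments, each made of 15 daily injections, 30 days in the home cage and a challenge 1 h before death. SS mice received saline throughout. SM mice had repeated saline and a morphine challenge, MS mice repeated morphine and a saline challenge, and MM mice morphine at both times. The D1 libraries numbered 8 for SS, 8 for SM, 9 for MS and 7 for MM, and the D2 libraries 7, 7, 8 and 7 in the same order. Which morphine dose each mouse had, the age of the mice, and whether a library came from 1 mouse or from a pool is not stated in the labels. If the libraries of a group do not come from separate mice, the p-values measure only the spread between libraries.

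The 2 classes of nuclei correspond to the main projection neurons of the striatum, whose targets differ only in part. Both classes receive excitatory, inhibitory and dopaminergic inputs. At their synapses, presynaptic neurexins and LAR-type phosphatases act as hubs that bind many postsynaptic partners. Neuroligins and LRRTM proteins bind neurexins, SLITRK and IL1RAPL proteins bind the phosphatases, and latrophilins bind FLRT proteins and teneurins. Contactins and contactin-associated proteins form complexes along axons, for example beside the node of Ranvier.

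The libraries held from 11518606 to 26108954 counts. The sorting labels were checked on the 2 receptor genes. Drd1 was at 63.5 ± 23.6 CPM (counts scaled to a common library total; SD, n = 32) in D1 and 11.4 ± 3.45 CPM (SD, n = 29) in D2 libraries, and Drd2 at 79.7 ± 23.6 CPM (SD, n = 32) and 868 ± 392 CPM (SD, n = 29). All libraries also carried counts over 1420 chemosensory receptor genes of the nose (olfactory and vomeronasal), for which no striatal transcription is known. The density of those counts, in CPM per kb, served as the background, with the 7 receptor genes on the X chromosome used for members on X. Spread over all genes by length, it would account for 61.4 ± 14% of counts (SD, n = 61). D1 SS replicate 1 stood apart at 7.47%, whereas the other 60 libraries ran from 33.1% to 86.3%, and edgeR and net-level results that moved with it are also given without it. DESeq2 was run only with it. The gene lengths behind the FPKM values deposited by the authors were whole gene spans, introns included, and the strand setting of their counting is not given in the labels or headers. For 8 members that lie inside a coding gene on the opposite strand, the counts of the pair therefore cannot be told apart. These are Flrt1, Flrt3, Lrfn1, Lrfn4, Lrrc4, Lrrtm1, Lrrtm2 and Lrrtm3. Annotated genes that are not protein coding also overlap 82.8% of the Nlgn3 span and 72.4% of the Lingo4 span.

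Measured per length, 20 of the 52 genes (38.5%) stood at or above 2 times the receptor gene density in the median over 61 libraries, against 25.8% of 20477 coding genes with a length. Another 21 lay between 1.2 and 2 times and 11 below 1.2 times, where single receptor genes also fall: the middle 90% of receptor genes had ratios from 0.485 to 1.78. The highest medians belonged to Lingo3 at 7.75 times, Adgrl1 at 6.80, Nlgn2 at 6.15, Ptprs at 5.91 and Slitrk5 at 5.42. Lingo3 encodes a leucine-rich repeat protein, Adgrl1 the receptor latrophilin 1, Nlgn2 the neuroligin of inhibitory synapses and Ptprs a LAR-type phosphatase. The lowest belonged to Cntn6 at 1.04, Lingo4 at 0.982, Lrfn1 at 0.937, Lrrc4 at 0.882 and Il1rapl2 at 0.846, all at the level of the receptor genes. Of the 21 genes longer than 200 kb only 2 reached 2 times the density, against 18 of the 31 shorter ones. Because long genes gather background counts over their introns, a high raw count is no sign of a high level here.

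**Figure D1:**
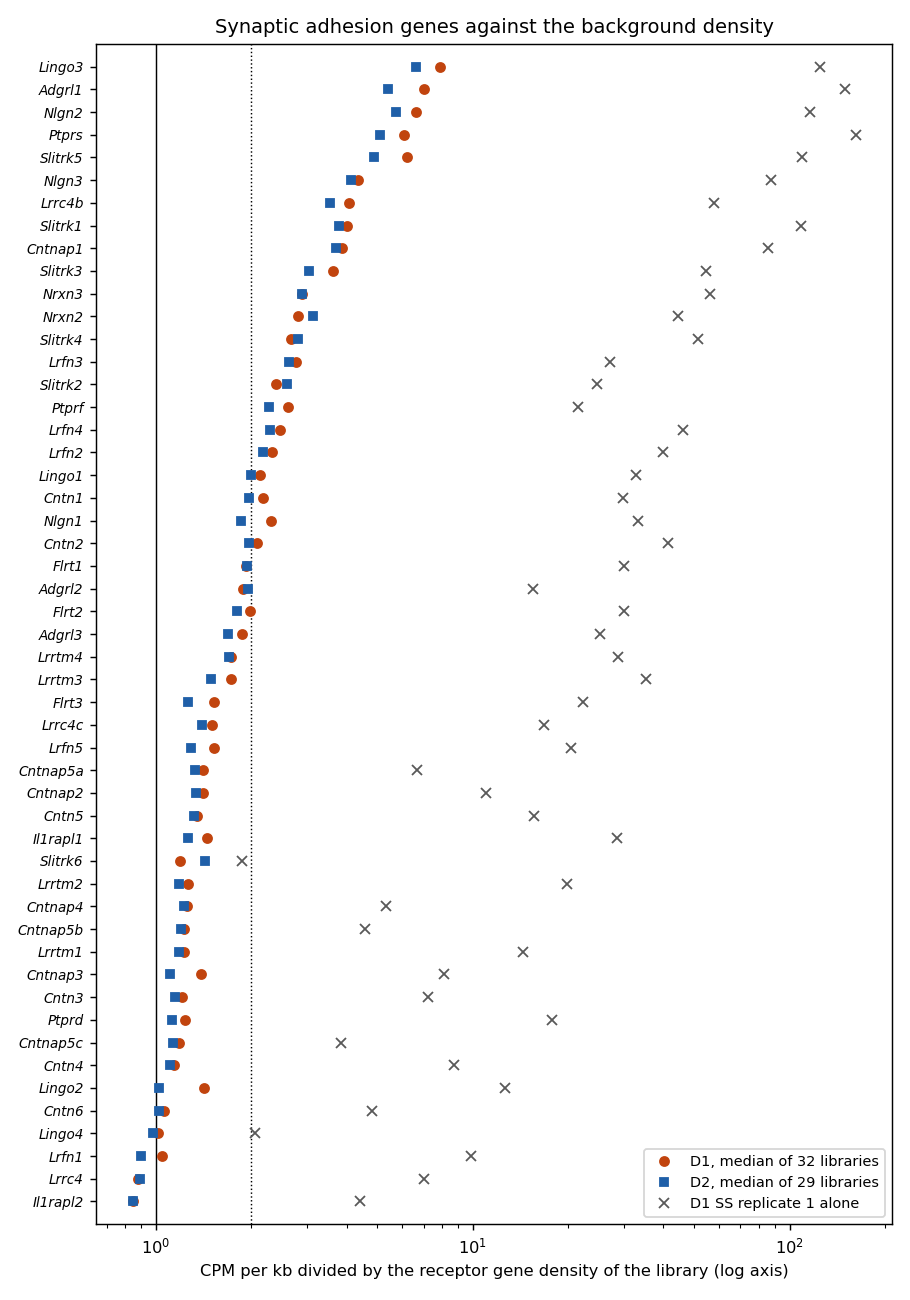
Ratio of CPM per kb to the receptor gene density of the same library (log axis) for 51 of the 52 genes, ordered by the median over 61 libraries. Circles are medians of 32 D1 libraries, squares medians of 29 D2 libraries and crosses D1 SS replicate 1 alone; the solid and dotted lines mark 1 and 2 times the density. Lingo2 and Cntnap3, near the bottom, have the D1 median at 1.42 and 1.39 and the D2 median at 1.02 and 1.11.

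Among the presynaptic hubs, the neurexin gene Nrxn3 ran from 1.36 to 56.2 times the density over the libraries with a median of 2.90, and Nrxn2 from 1.38 to 44.5 with a median of 2.83. In both cases the highest value was that of D1 SS replicate 1. Of the LAR-type phosphatases, Ptprs (5.91) and Ptprf (2.45) stood above 2 times, whereas Ptprd, the longest gene of the set at 2270.72 kb and the phosphatase bound by IL1RAPL1, had a median of only 1.16.

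Their postsynaptic partners were unequal in the same way. Nlgn2 (median 6.15) and Nlgn3 (4.30) were well above the density, and Nlgn1, the neuroligin of excitatory synapses, was at 1.98. All 4 LRRTM genes lay below 2 times, with Lrrtm2 at 1.25. Of the 6 SLITRK genes 5 lay above 2 times, Slitrk6 being the exception at 1.27. Il1rapl1, whose protein organises excitatory synapses with PTPRD, was at 1.31. Of the latrophilins only Adgrl1 exceeded 2 times, and Adgrl3, a receptor for FLRT3 and teneurins, was at 1.75. The axonal group was low: 1 of 6 contactins (Cntn1, 2.03) and 1 of 7 contactin-associated genes (Cntnap1, 3.72) reached 2 times, and Cntnap2, a partner of contactin 2 at the juxtaparanode, had a median of 1.36. The ranges over libraries of neighbours in this order overlapped.

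In D1 SS replicate 1, the library with the least background, 51 of the 52 genes were at or above 2 times its receptor gene density, and the median was 26.2 times. Slitrk6, at 1.88, was the exception. After the background was taken off, this library lay inside the range of the other D1 libraries for more genes, though not for every gene. The net level used below is CPM per kb minus the receptor gene density, divided by the share of counts above that density. On that scale D1 SS replicate 1 lay inside the range of the other 31 D1 libraries for 36 of 52 genes, against 1 of 52 for CPM scaled by the trimmed mean of M values (TMM). On the net scale it lay above the range for 15 genes and below it for 1. The division enlarges the scatter of libraries with a high background, so lying inside their range does not by itself show closeness. The ranking by net level began with Lingo3 (8.33 ± 2.43 net CPM per kb, SD, n = 61), Adgrl1 (6.84 ± 2.05) and Ptprs (6.36 ± 1.84). Nrxn3 was at 2.53 ± 0.616 and Nrxn2 at 2.44 ± 0.523, and 14 genes were under 0.3.

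**Figure D2:**
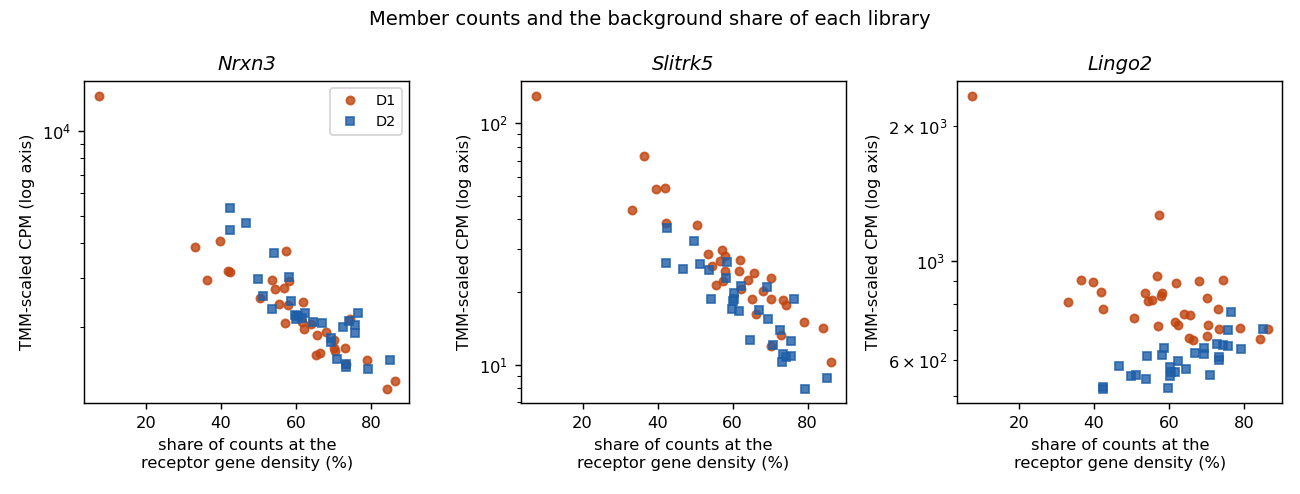
TMM-scaled CPM (log axis) of Nrxn3, Slitrk5 and Lingo2 against the percent of counts at the receptor gene density in each of 32 D1 libraries (circles) and 29 D2 libraries (squares). The leftmost point is D1 SS replicate 1 at 7.47%, where each of the 3 genes has its highest value, and for Lingo2 the D2 libraries lie lower than most D1 libraries.

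The question of which adhesion genes differ between the 2 classes of neuron was answered by D2 minus D1, averaged over the 4 treatments. Lingo2, Cntnap3 and Lrfn1 were lower in D2 and no member was called higher, a call being an adjusted p under 0.05 in the edgeR fit over all genes. That is 3 of 52 members, where 129 of 42870 genes tested were called (0.301%). Fewer cells of a type and less RNA per cell cannot be told apart in these libraries. Over all members the median log2 difference was -0.19, against 0.01 over all genes, with 48 of 52 below 0. Without D1 SS replicate 1 the same 3 members were called beside 161 of 42833 genes (0.376%). The median was then -0.06 and 34 were below 0, and with the background as a covariate it was -0.01, so the tilt of the whole set toward D1 moved with that library and with the background.

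Lingo2 encodes a leucine-rich repeat and immunoglobulin protein related to LINGO1, the co-receptor of the Nogo receptor, and lies on chromosome 4 from 35706647 to 36951747 (mm10, minus strand). Its TMM-scaled CPM in the D1 libraries was 665 at the lowest, 796 at the median and 2331 at the highest, and in the D2 libraries 519, 599 and 769. All 29 D2 libraries were under the D1 median and 26 were under every D1 library. The log2 difference was -0.49 ± 0.08 (SE), with adjusted p = 3.34e-05, and without D1 SS replicate 1 it was -0.41 ± 0.05 with adjusted p = 3.16e-09. Against the receptor gene density the D2 libraries ran from 0.930 to 1.13 times with a median of 1.02. In D2 the counts over this gene therefore could not be told from the background. This does not show that Lingo2 RNA was absent there, as the background of a gene this long need not equal the receptor gene density. Il1rapl2, on X and 1276.3 kb long, had a median of 0.846 times. In D1 the Lingo2 ratio ran from 0.977 to 12.7 times with a median of 1.42. Both the 12.7 times and the 2331 TMM-scaled CPM were those of D1 SS replicate 1. No D1 library of SM, MS or MM was above 2.23 times.

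Cntnap3, a contactin-associated protein gene on chromosome 13 from 64736182 to 64903955 (minus strand), had a smaller log2 difference. Its TMM-scaled CPM was 93.1 at the lowest, 106 at the median and 201 at the highest in D1, and 77.5, 88.1 and 108 in D2. The groups overlapped, with 23 of 29 D2 libraries below every D1 library. The log2 difference was -0.32 ± 0.05 (SE), with adjusted p = 1.53e-05, and it was -0.29 ± 0.03 without D1 SS replicate 1. As counts over long genes contain background, these log2 values understate the difference in level. On the net scale Cntnap3 was at 0.449 ± 0.136 net CPM per kb (SD, n = 32) in D1 and 0.148 ± 0.0568 (SD, n = 29) in D2, and Lingo2 at 0.443 ± 0.253 (SD, n = 32) and 0.0255 ± 0.0587 (SD, n = 29). On that scale 28 of 32 D1 libraries lay above every D2 library for Cntnap3, and 29 of 32 for Lingo2.

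Slitrk5 encodes a postsynaptic protein, and mice without it groom compulsively and have altered corticostriatal synapses. The gene, on chromosome 14 from 111675097 to 111683141 (plus strand), is short and stood at 5.42 times the receptor gene density. Its net level in D1 was 3.81 at the lowest, 6.74 at the median and 11.1 at the highest, and in D2 2.66, 4.71 and 7.44, so the groups overlapped. In the edgeR fit of the counts it missed the threshold, with a log2 difference of -0.73 ± 0.18 (SE) and adjusted p = 0.0555, and -0.57 ± 0.16 with adjusted p = 0.13 without D1 SS replicate 1. On the net level, tested with limma over all genes, the difference was -2.02 ± 0.35 net CPM per kb (SE) with adjusted p = 2.41e-04, and it was -2.03 ± 0.36 without D1 SS replicate 1. With the background covariate in edgeR it was called too, at log2 -0.37 ± 0.09 with adjusted p = 0.0293.

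The net level is an alternative added after the data were seen. It called 170 of 42870 genes (0.397%) and the 3 members Cntnap3, Lingo2 and Slitrk5. Cntnap3 differed by -0.30 ± 0.03 net CPM per kb (SE, adjusted p = 1.98e-10) and Lingo2 by -0.42 ± 0.05 (adjusted p = 7.99e-08). The background covariate in edgeR called 253 genes (0.59%) and 6 members, namely Cntnap3, Lingo2, Lrfn1, Lingo1 and Slitrk5, which were lower in D2, and Nrxn2, which was higher. For Nrxn2, whose protein binds neuroligins and LRRTM proteins, the net level was 1.31 at the lowest, 2.27 at the median and 2.85 at the highest in D1, and 1.64, 2.76 and 3.69 in D2. The log2 value was 0.23 ± 0.06 (SE, adjusted p = 0.0301) with the covariate, but -0.08 without it and 0.09 without D1 SS replicate 1, and the net difference of 0.47 ± 0.12 had an adjusted p of 0.05001. Without D1 SS replicate 1 the net level also called Nrxn2 (0.48 ± 0.12, adjusted p = 0.0417) and Ptprf (-0.36 ± 0.09, adjusted p = 0.0297), where 172 genes were called (0.402%). DESeq2 called 6 members, among them Cntnap3, Lingo2, Lrfn1 and Slitrk5, which were lower, and Slitrk6, which was higher in D2, where 154 genes were called (0.359%). The Nrxn2 result therefore depends on how the background is handled.

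Lrfn1, which encodes a postsynaptic protein that binds PSD-95, lies inside Samd4b on the opposite strand. Its TMM-scaled CPM was 5.71 at the lowest, 7.64 at the median and 23.7 at the highest in D1, and 4.55, 6.70 and 9.90 in D2. The log2 difference was -0.36 ± 0.09 (SE) with adjusted p = 0.0454, and without D1 SS replicate 1 -0.29 ± 0.07 with adjusted p = 0.0208. At 1.05 times the receptor gene density in D1 and 0.899 times in D2, and a net level of -0.0455 ± 0.479 (SD, n = 32) and -0.324 ± 0.528 (SD, n = 29), it was not measured above background in either class. The net level did not call it.

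**Figure D3:**
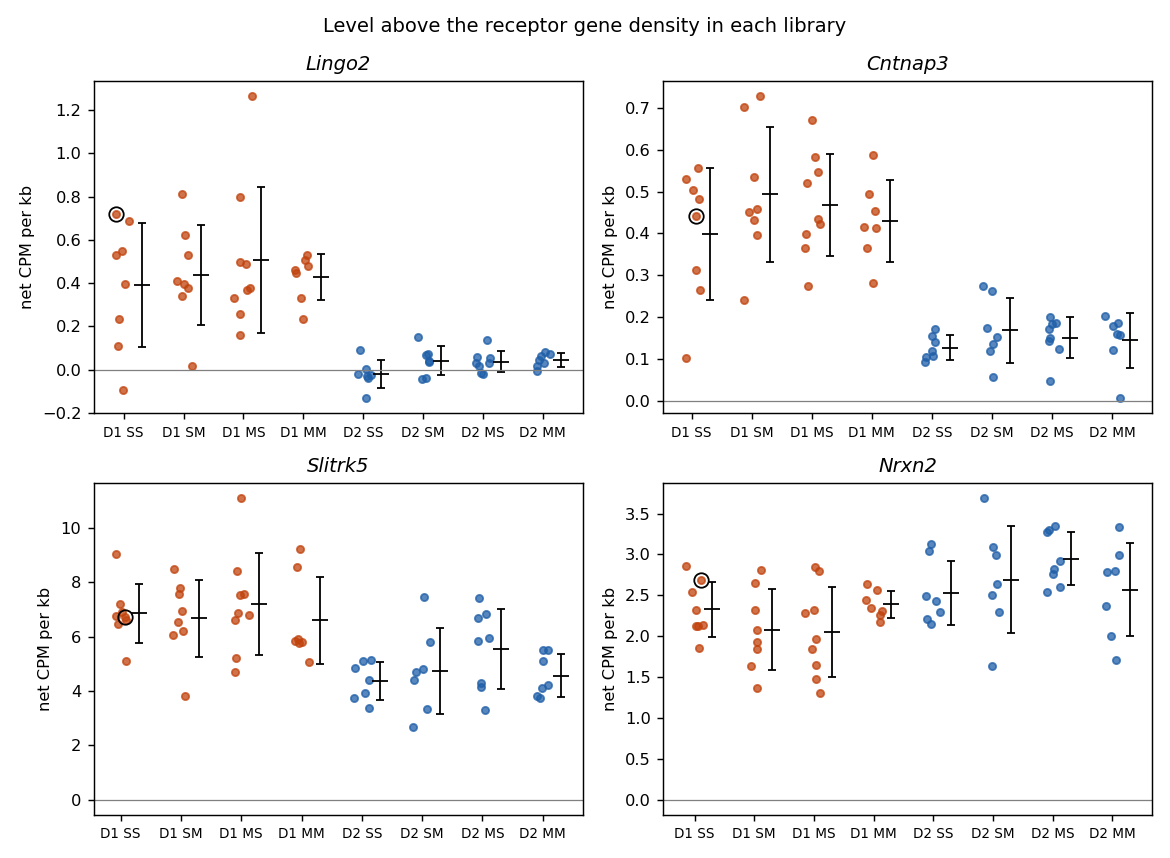
Net CPM per kb of Lingo2, Cntnap3, Slitrk5 and Nrxn2 in each library of the 8 groups (D1 in orange, D2 in blue); black bars are the mean and SD of a group, the open ring marks D1 SS replicate 1, and 0 is the receptor gene density. Lingo2 in D2 scatters around 0 with a mean of 0.0255 net CPM per kb, and the ringed library lies among the other D1 libraries.

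The 3 genes with a difference on the net scale can be shown by the windows around their starts, from 250 bases before to 50 bases after (RefSeq, GRCm38.p6). Windows were found for 39 of the 52 members, and Lrfn1 and Nrxn2 were not among them. The Cntnap3 window is chr13:64903839-64904138 (minus strand) and that of Slitrk5 chr14:111675777-111676076 (plus strand). The Slitrk5 start lies 0.93 kb inside the annotated gene. Lingo2 has 2 windows, chr4:36718914-36719213 and chr4:35845155-35845454 (minus strand), whose starts lie 232.8 and 1107 kb inside the annotated gene. Capitals mark matches on either strand to the GC box GGGCGG, the cAMP-response core TGACG, the TATA box TATAAA or the CCAAT box.
Cntnap3: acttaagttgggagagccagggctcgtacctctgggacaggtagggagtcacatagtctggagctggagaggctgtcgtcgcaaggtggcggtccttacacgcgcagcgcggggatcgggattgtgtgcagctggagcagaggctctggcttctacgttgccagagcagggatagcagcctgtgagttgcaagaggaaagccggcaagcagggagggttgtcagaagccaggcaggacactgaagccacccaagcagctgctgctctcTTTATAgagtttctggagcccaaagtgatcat
Slitrk5: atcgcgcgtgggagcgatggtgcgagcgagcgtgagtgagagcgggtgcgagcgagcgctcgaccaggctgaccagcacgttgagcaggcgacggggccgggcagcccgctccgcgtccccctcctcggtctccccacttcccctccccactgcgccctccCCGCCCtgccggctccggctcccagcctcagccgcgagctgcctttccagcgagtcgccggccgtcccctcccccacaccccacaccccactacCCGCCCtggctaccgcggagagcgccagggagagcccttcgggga
Lingo2 start nearer the 5′ end: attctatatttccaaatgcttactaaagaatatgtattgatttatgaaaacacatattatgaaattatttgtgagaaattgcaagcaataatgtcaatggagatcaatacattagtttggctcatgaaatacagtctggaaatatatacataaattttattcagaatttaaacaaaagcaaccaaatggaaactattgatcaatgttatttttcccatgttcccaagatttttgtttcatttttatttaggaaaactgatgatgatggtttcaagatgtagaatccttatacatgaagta
Lingo2 second start: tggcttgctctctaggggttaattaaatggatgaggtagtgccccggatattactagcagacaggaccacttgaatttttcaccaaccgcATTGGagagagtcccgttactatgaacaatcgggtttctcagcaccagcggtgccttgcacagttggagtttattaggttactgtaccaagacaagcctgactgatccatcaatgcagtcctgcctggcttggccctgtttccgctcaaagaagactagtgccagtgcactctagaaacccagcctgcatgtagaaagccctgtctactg
The Slitrk5 window held 2 matches to the GC box, 1 of them after the start, and was 74.3% G and C. In the Cntnap3 window, 58% G and C, the 1 match to the TATA box letters lay after the start and on the opposite strand. The Lingo2 windows held 0 and 1 match at 26.3% and 49.3% G and C. None of these windows held TGACG. Over 55 windows of members, 36.4% held the GC box, 20% TGACG, 9.09% the TATA box and 25.5% the CCAAT box, against 35.7%, 20.8%, 13.6% and 37.4% of all 32851 windows.

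Within single treatments the number of libraries was smaller, and the calls fewer. In SS, Lingo2 was the only member called, at log2 -0.73 ± 0.15 (SE) with adjusted p = 0.0299, where 20 of 42870 genes were called (0.0467%). Its TMM-scaled CPM there was 665 at the lowest, 803 at the median and 2331 at the highest in D1, and 519, 566 and 650 in D2, and the groups did not overlap. This call ended without D1 SS replicate 1, where the difference was -0.41, and DESeq2 called 37 members beside 9812 genes (22.9%) while that library was in. In SM no member was called beside 13 genes (0.0303%), in MS none beside 32 (0.0746%) and in MM none beside 24 (0.056%). The smallest p belonged to Cntnap3 in SM (log2 -0.26 ± 0.10), Lingo2 in MS (-0.51 ± 0.14) and Lrfn1 in MM (-0.51 ± 0.18), with edgeR adjusted p of 0.894, 0.552 and 0.831. At an unadjusted p under 0.05 there were 3, 5 and 4 members in SM, MS and MM, beside 2.17%, 2.0% and 4.89% of all genes. These became 9, 7 and 10 members without D1 SS replicate 1, beside 4.79%, 4.28% and 8.47% of genes, and 6, 16 and 14 with the covariate, beside 3.08%, 5.26% and 11.1%. Without D1 SS replicate 1, which is not an MS library but enters the shared estimate of spread, Lingo2 (-0.52 ± 0.09, adjusted p = 1.69e-04) and Cntnap3 (-0.32 ± 0.06, adjusted p = 0.00578) were called in MS by edgeR, where 47 genes were called (0.11%).

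With the background subtracted, Cntnap3 was called in 3 of the 4 single treatments. On the net level it passed in SM (-0.33 ± 0.06 net CPM per kb, adjusted p = 0.00465, where 0.084% of genes were called), in MS (-0.32 ± 0.06, adjusted p = 0.00152, 0.105%) and in MM (-0.29 ± 0.06, adjusted p = 0.0316, 0.11%). In SS the difference was -0.27 ± 0.06 with adjusted p = 0.0758. Lingo2 was called in MS, at -0.47 ± 0.10 with adjusted p = 0.0137. The edgeR fit with the covariate called Cntnap3 and Lingo2 in MS (0.222% of genes), and Cntn2, Lingo1 and Lrfn1 in MM (0.275%). That the difference varied between treatments was tested directly and not called: for each of the 4 differences of D2 minus D1, 0 of 42870 genes passed in edgeR (0%). At an unadjusted p under 0.05 there were 4 members for SM minus SS, 35 for MS minus SS, 12 for MM minus SS and 1 for MM minus MS, beside 2.46%, 24.7%, 6.74% and 3.57% of all genes. Without D1 SS replicate 1 these became 1, 3, 2 and 5 members, beside 2.33%, 5.97%, 4.81% and 7.70% of genes, so the 35 for MS minus SS moved with that library. With the covariate they were 3, 2, 6 and 9, beside 5.87%, 5.71%, 12.3% and 6.90%. While that library was in, DESeq2 called 23 for MS minus SS, where 12.1% of genes were called, and 0 for the others. For Lingo2 the change of the difference from SS to MM was 0.33 ± 0.22 log2, and for Cntnap3 0.16 ± 0.14, neither called, and without D1 SS replicate 1 both were 0.02.

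**Figure D4:**
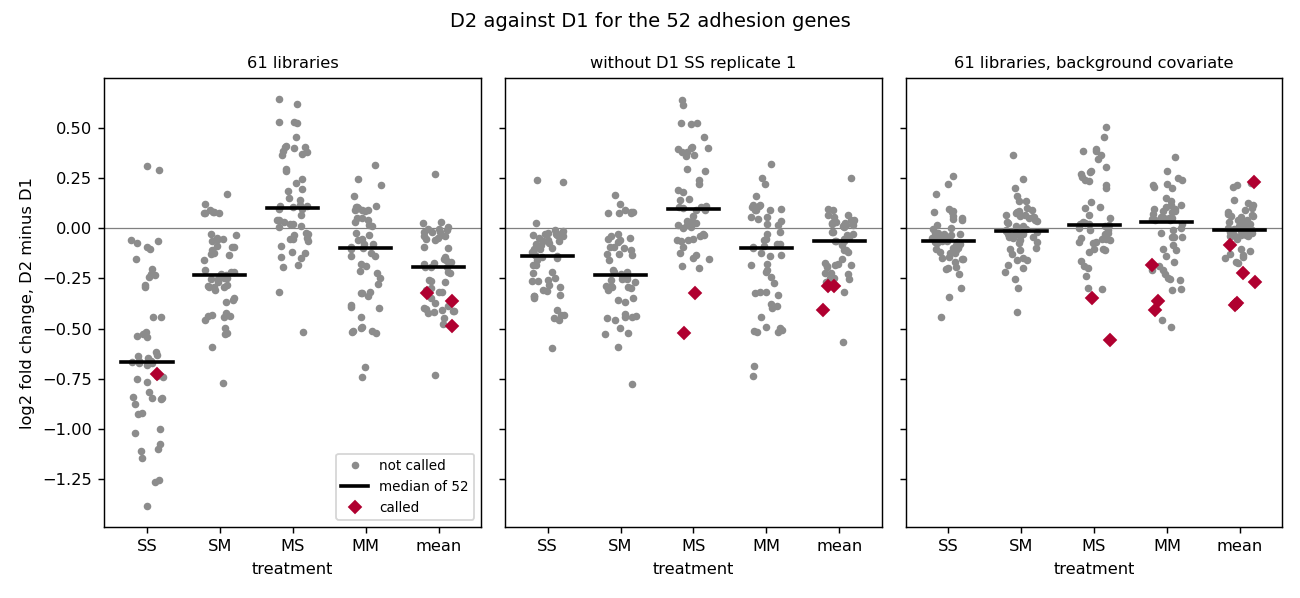
Log2 fold change of D2 minus D1 for the 52 genes in each treatment and averaged over treatments, in the edgeR fit of 61 libraries (left), of 60 libraries without D1 SS replicate 1 (middle) and of 61 libraries with the background covariate (right); black lines are medians and red diamonds are called genes. The SS median moves from -0.67 to -0.14 and -0.06 across the panels.

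The other lists of markers gave a check on what else the sorted nuclei held. The D1 markers summed to 411 ± 79.5 CPM (SD, n = 32) in D1 and 186 ± 11.3 CPM (SD, n = 29) in D2, and the D2 markers to 211 ± 73.6 and 1237 ± 483. Sums for 9 oligodendrocyte genes were 208 ± 18.3 and 203 ± 14.3 CPM, for 6 astrocyte genes 158 ± 37 and 166 ± 26.3, for 6 microglial genes 157 ± 21.7 and 157 ± 16.3, and for 7 interneuron genes 243 ± 40.3 and 237 ± 35. The sum for 6 cortical glutamatergic genes was highest in D1 SS replicate 1 at 305 CPM, against 213 CPM in the next library, D1 SS replicate 8. In D1 libraries 4 of the 5 D2 markers found reached 2 times the receptor gene density, up to 32.3 times. In D2 libraries 4 of 8 D1 markers did, up to 10.9 times. At most 1 gene of each glial list reached 2 times the density in either class. Of the 6 cortical glutamatergic genes Slc17a7 did so in D1 (2.14 times). Of the interneuron list, Npy and Sst did so in D1 and Sst in D2, where the highest ratios were 16.7 and 7.71. The part of these markers in the differences of Lingo2, Cntnap3 and Slitrk5 was not tested.

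Of 44 further ligands and partners of these proteins, 1 was called in D2 minus D1 by the edgeR fit, where 0.301% of genes were called. Ptprz1, a receptor phosphatase that binds contactin 1, was at 126 ± 12.2 TMM-scaled CPM (SD, n = 32) in D1 and 110 ± 5.65 (SD, n = 29) in D2, a log2 difference of -0.19 ± 0.04 (SE) with adjusted p = 0.00198. The median log2 difference of the 44 was -0.14, against 0.01 over all genes. This fit included D1 SS replicate 1, with which the tilt of the members moved. On the net level 3 of the 44 partners were called, beside 0.397% of genes. Among them Unc5d (0.24 ± 0.03 net CPM per kb, adjusted p = 1.33e-06) and Unc5c (0.20 ± 0.04, adjusted p = 0.0046) were higher in D2. Unc5d and Unc5c both encode netrin receptors, and UNC5 proteins bind FLRT proteins.

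None of the 52 genes was called in a treatment comparison by edgeR. In each of the 6 comparisons within D1, edgeR called 0 of 41083 genes (0%), and in each of the 6 within D2, 0 of 41125 (0%). At an unadjusted p under 0.05, D1 members numbered 4 in SM against SS, 7 in MS against SS, 0 in MM against SS, MS and SM each, and 2 in the comparison of the challenge between histories. The shares of all genes at that level in D1 ran from 1.34% to 2.68%, with 1.87% for SM against SS and 2.68% for MS against SS. Without D1 SS replicate 1 the 4 and the 7 both became 0, as did the 2, and MM against SS, MS and SM had 2, 2 and 1, beside 5.68%, 4.92% and 2.88% of genes. In D2 the counts were 1, 29 and 15 against SS, 0 for MM against MS, 13 for MM against SM and 1 between histories, beside 3.24%, 32%, 13.3%, 3.76%, 7.73% and 3.56% of all genes. With the background covariate they were 3, 5 and 15 against SS, 7 for MM against MS, 8 for MM against SM and 4 between histories, beside 7.97%, 13.7%, 12%, 5.68%, 3.89% and 9.12% of genes. For D2 MS against SS the members' share was thus 55.8% against 32% of genes without the covariate, and 9.62% against 13.7% with it. DESeq2 called 0 members in 11 of these 12 comparisons, D2 MS against SS being the exception, and limma voom called 0 in all 12.

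In D1, Slitrk1 (-0.95 ± 0.40 log2) and Ptprd (-0.53 ± 0.24) were among the genes with the smallest p in SM against SS, and neither passed, with adjusted p = 0.955. Slitrk1 had TMM-scaled CPM of 4.92 at the lowest, 9.60 at the median and 86.1 at the highest in D1 SS, and the highest was D1 SS replicate 1. Without that library the difference was 0.07 for Slitrk1 and -0.001 for Ptprd, and the median over members went from -0.38 to 0.07. For MS against SS, Slitrk1 also led (-1.08 ± 0.39), with adjusted p = 0.824. Without that library it was at -0.07 ± 0.23, and the median over members went from -0.40 to 0.04. For MM against SS it was Ptprd (-0.48 ± 0.25, adjusted p = 1.00), which was at 0.05 ± 0.09 without that library, and the median went from -0.18 to 0.24. MM against MS and against SM were led by Slitrk2, at 0.32 ± 0.21 and 0.25 ± 0.22. MM minus MS less SM minus SS, which sets the challenge response after morphine against that after saline, was led by Slitrk1 at 1.55 ± 0.57 with adjusted p = 0.782, and without that library it was at 0.53 ± 0.32.

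In D2, MS against SS came nearest to a call. The TMM-scaled CPM of Lrrtm2, a neurexin ligand of excitatory synapses, was 2.46 at the lowest, 2.60 at the median and 3.56 at the highest in SS, and 3.03, 4.30 and 7.36 in MS, with overlap of the groups. This gene lies inside Ctnna1 on the opposite strand. Its median was 0.914 times the receptor gene density in D2 SS and 1.55 times in D2 MS. The log2 difference of Lrrtm2 was 0.69 ± 0.17 with adjusted p = 0.0713, and that of Cntnap1 was 0.88 ± 0.28 and of Slitrk4 0.76 ± 0.24, at the same adjusted p. The median over members was 0.29, against -0.05 over all genes. The receptor gene density was 0.511 ± 0.0498 CPM per kb (SD, n = 7) in D2 SS and 0.435 ± 0.0724 (SD, n = 8) in D2 MS, and with the background covariate the median over members was 0.09 and Lrrtm2 0.40 ± 0.13 with adjusted p = 0.292. DESeq2 called 17 members in this comparison beside 6236 of 41125 genes (15.2%), and edgeR with the replicate number as a block called 20 beside 8595 (20.9%). On the net level 0 members were called.

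MM against SS in D2 was led by Lrfn5 (0.37 ± 0.12), Cntnap2 (0.27 ± 0.08) and Il1rapl1 (0.55 ± 0.18), with adjusted p = 0.361. MM against SM was led by Cntnap2 (0.30 ± 0.08), Il1rapl1 (0.62 ± 0.18) and Nlgn1 (0.53 ± 0.15), with adjusted p = 0.608. Cntnap2 had TMM-scaled CPM of 1206 at the lowest, 1409 at the median and 1501 at the highest in D2 SM, and 1369, 1532 and 2274 in D2 MM, with overlap of the groups. SM against SS was led by Lingo4 (-0.30 ± 0.12) and MM against MS by Lrfn4 (-0.57 ± 0.30), and neither passed. Lingo4 had a D2 median of 0.977 times the receptor gene density, and Lrfn4 lies inside Pcx on the opposite strand. In the comparison of the challenge between histories Lrrtm2 had the smallest p, at -0.59 ± 0.25 with adjusted p = 0.991.

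Whether treatment acted differently on the 2 classes was asked by the difference of differences. MS minus SS gave the largest values, led by Slitrk1 at 1.74 ± 0.50 log2, Lrrtm2 at 1.23 ± 0.38 and Cntnap1 at 1.67 ± 0.53, none passing, with adjusted p = 0.149. Without D1 SS replicate 1 these were 0.72 ± 0.34, 0.71 ± 0.30 and 0.86 ± 0.44. The median over members was 0.74, and it was 0.21 without that library and 0.07 with the background covariate. SM minus SS was led by Lingo4 at -0.45 ± 0.17, MM minus SS by Cntn3 at 0.36 ± 0.14 and MM minus MS by Slitrk2 at -0.60 ± 0.28, none passing. Without that library these were -0.40 ± 0.16, 0.21 ± 0.09 and -0.59 ± 0.25.

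**Figure D5:**
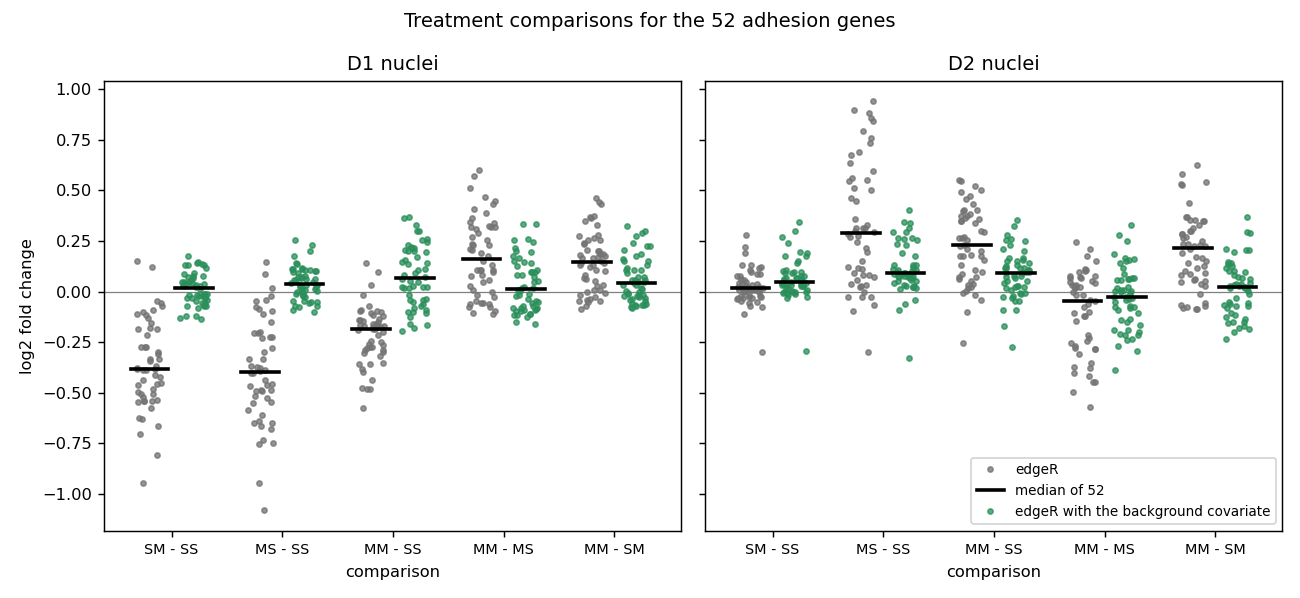
Log2 fold change of the 52 genes in 5 treatment comparisons in D1 (left) and D2 (right) nuclei, from edgeR (grey) and from edgeR with the background covariate (green); black lines are medians. In D1 the median of MS - SS is -0.40 without the covariate and 0.04 with it, and in D2 it is 0.29 and 0.09.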

How the data were processed

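The 61 libraries hold RNA from sorted nuclei, made with a stranded kit for low inputs of total RNA, per the labels' protocols. Per the submitters' processing notes, the authors used featureCounts, DESeq2 and the build mm10. No source used here gives the aligner or the strand setting. Tests used the raw counts deposited by the authors, and gene lengths came from their deposited FPKM values. For 54281 of 54281 genes the length equalled the whole gene span in GENCODE M21 within a relative tolerance of 1e-06.

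Counts were fitted with edgeR 4.0.16 in R 4.3.3: TMM scaling, filterByExpr, a robust quasi-likelihood fit, two-sided tests and Benjamini-Hochberg adjustment over all genes tested (41083 in D1, 41125 in D2, 42870 jointly). Alternatives used DESeq2 1.42.0, its size factors in edgeR, limma 3.58.1 (voom), no filter on low counts, a background covariate, a replicate block, no D1 SS replicate 1, and the net level. The scripts were tested on simulated data.

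The members and lists were chosen with earlier results of these data known. Named are called members, up to 3 with the smallest p where none was called, the 5 highest and 5 lowest by level, 12 prototypes and called partners. Members called in D2 minus D1 only under an alternative, such as Nrxn2, Slitrk5 and Ptprf, were named after their values were seen. Values of 1 member are not reported here.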

Additional observations from a re-analysis of the deposited data

Results flagged for a closer look

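Sample values were searched for libraries far from the rest of their group in 48 sets, made of the receptor gene density and the TMM-scaled CPM of Lingo2, Cntnap3, Slitrk5, Lrfn1 and Nrxn2 in 8 groups. In 12 cases the highest or lowest library lay beyond Dixon's 95% limit, and chance would put about 1 in 20 sets there. D1 SS replicate 1 was high for all 5 genes, with 2331 for Lingo2, 201 for Cntnap3, 130 for Slitrk5, 23.7 for Lrfn1 and 825 for Nrxn2, and its background share was 7.47%. D1 MS replicate 2 had a low receptor gene density, 0.278 CPM per kb, and was high for Slitrk5 (72.9), Lrfn1 (12.9) and Nrxn2 (319). In D1 SM replicate 2 Nrxn2 stood high at 330. Lingo2 stood high in D1 MS replicate 6 at 1267, and Cntnap3 in D2 SS replicate 2 at 95.4. The cause was not tested.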

How the results depend on the processing

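Of 177 counts of members called under alternatives, 155 kept within 1.5 times of the reported count, and in 14 of 21 comparisons all did. Only D2 minus D1 over 4 treatments and in SS had a reported count above 0. Most of the 155 were therefore counts of 0 that stayed 0, and the 14 comparisons had 0 throughout. Both counts above 0 moved under some alternatives. For D2 minus D1 over 4 treatments the reported 3 became 6 with DESeq2 (0.359% of genes called) and 6 with the background covariate (0.59%). It became 5 on the net level without D1 SS replicate 1 (0.402%). In SS the reported 1 became 38 with DESeq2 size factors in edgeR, at an adjusted p under 0.05. At an unadjusted p under 0.05 that fit had 45 members (86.5%), beside 32.4% of all genes. The reported 1 became 37 with DESeq2, where 22.9% of genes were called. The count was 0 with limma voom, the background covariate, the net level with or without D1 SS replicate 1, and edgeR without that library. In SM it was 1 on the net level with or without that library (0.084% and 0.0864% of genes called). In MS 2 members were called with the covariate (0.222% of genes) and on the net level with or without that library (0.105% and 0.112%). The edgeR fit without that library also called 2 (0.11%). In MM it was 3 with the covariate (0.275%), 1 on the net level (0.11%) and 2 on the net level without that library (0.121%). DESeq2 called 17 members in D2 MS against SS, beside 15.2% of genes. In the difference of MS minus SS between the classes it called 23, beside 12.1%. Among 44 partners the reported 1 (0.301% of genes called) became 2 with DESeq2 (0.359%) and 3 with the covariate (0.59%). It was also 3 without D1 SS replicate 1 (0.376%), and on the net level with or without that library (0.397% and 0.402%). Slitrk1 in D1 SM against SS reversed to 0.0591 with DESeq2 and 0.0717 without D1 SS replicate 1, Ptprd in D1 MM against SS to 0.055 and 0.0528, and Nrxn2 in D2 minus D1 to 0.0356 with voom, 0.092 without that library and 0.228 with the covariate. The net level was added after the data were seen. The cause of these changes was not tested.

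Replicate numbers gave no clear pairing of the libraries, and pairing was not excluded. Deviations of libraries with the same number correlated at a median of 0.026 in D1 and 0.034 in D2. Between different numbers the medians were 0.013 and 0.0039. Same-number values ranged from -0.703 to 0.835 in D1 and from -0.589 to 0.664 in D2, with 16 of 45 and 18 of 42 pairs over 0.1. Of the libraries, 7 of 32 and 5 of 29 correlated best with their own number. With the replicate block 20 members were called in D2 MS against SS, beside 20.9% of genes. In D2 minus D1 it called 4 at an adjusted p under 0.05. At an unadjusted p under 0.05 that fit had 25 members (48.1%), beside 19% of all genes. With a mean of 61.4% of counts at the receptor gene density, members near 1 times that density cannot be measured well at this depth.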
